A study of Homo sapiens with 2 samples.

Results

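The cells described here are the WaGa cells richest in the nuclear RNA MALAT1. In each of 2 single-cell libraries apart, they were chosen by their MALAT1 values, as the 10% of cells with the highest count of MALAT1 unique molecular identifiers (UMIs, which count captured RNA molecules) per 10000 UMIs of the cell. They numbered 1082 of 10816 cells, 414 of 4137 in the untreated-labelled library and 668 of 6679 in the treated-labelled library. They are called MALAT1-high cells below, and the remaining 90% of the same library are called the other cells.

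WaGa cells are an established line from a human Merkel cell carcinoma, a skin cancer with neuroendocrine features, and grow in suspension. One library came from cells labelled as receiving no treatment, with no solvent named. The other came from cells seeded in multiwell plates and given domatinostat, an inhibitor of class I histone deacetylases, dissolved in DMSO. The dose and the time were not given in the labels, both groups are this 1 line, and each group had 1 library made with 10x Genomics 3′ chemistry. Cells are not replicates, so no test was made, and the 95% exact intervals below cover counting error only. The libraries are named by their labels only, because CDKN1A, often induced by inhibitors of this class, stood at 111.7 and 99.7 CPM (UMIs per 1000000 UMIs other than MALAT1) in MALAT1-high and other cells labelled untreated and at 41.3 and 40.3 in those labelled treated.

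MALAT1 is a long non-coding RNA that is transcribed at high levels in most human cells and stays in the nucleus, where it gathers at nuclear speckles, bodies rich in splicing factors. Its share of a cell's captured RNA is therefore often read beside the shares of cytoplasmic and mitochondrial RNA. NEAT1, the scaffold of paraspeckles, is its neighbour in the genome and is also held in the nucleus.

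In both libraries, MALAT1-high cells had more RNA of mitotic genes such as CENPF and ASPM and of the DNA helicase gene PIF1. They also had more of other nuclear RNAs such as NEAT1 and KCNQ1OT1. Among the cells with the most UMIs, however, NEAT1 was at about the level of the other cells. MALAT1-high cells had less RNA of replication genes such as PCNA, of the secretory granule gene CHGA and of the chemokine receptor gene CXCR4. They were called in G2/M more often than the other cells and held fewer UMIs per cell. Their mitochondrially encoded share of the summed UMIs other than MALAT1 was 0.451 and 0.453 percentage points higher. Among the treated-labelled cells with the fewest UMIs it was nearly equal to that of the other cells. The lineage genes as a group were near the level of the other cells.

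The MALAT1 values chose the cells and are given as a description. The median MALAT1-high cell had 455 MALAT1 UMIs per 10000 in the untreated-labelled library and 418 in the treated-labelled library, against 264 and 227 in the other cells. These shares came from a median of 440.5 and 340 MALAT1 UMIs per MALAT1-high cell and of 292 and 195 per other cell, so that counts as well as shares were higher. The lowest cell inside the threshold stood at 407.365 and the highest outside at 407.361 in the untreated-labelled library, and at 367.434 and 367.433 in the treated-labelled library. MALAT1-high cells were thus the upper end of a continuous range and not a separate group. Their highest cells had 13.9% and 10.5% of their UMIs from MALAT1, and 53 and 158 of them reached 2 times the median of their library. When the UMIs of each cell were split at random into 2 equal parts, one to rank the cells and the other to measure them, the measured medians were 455.7 against 264.0 and 413.7 against 225.9.

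**Figure D1:**
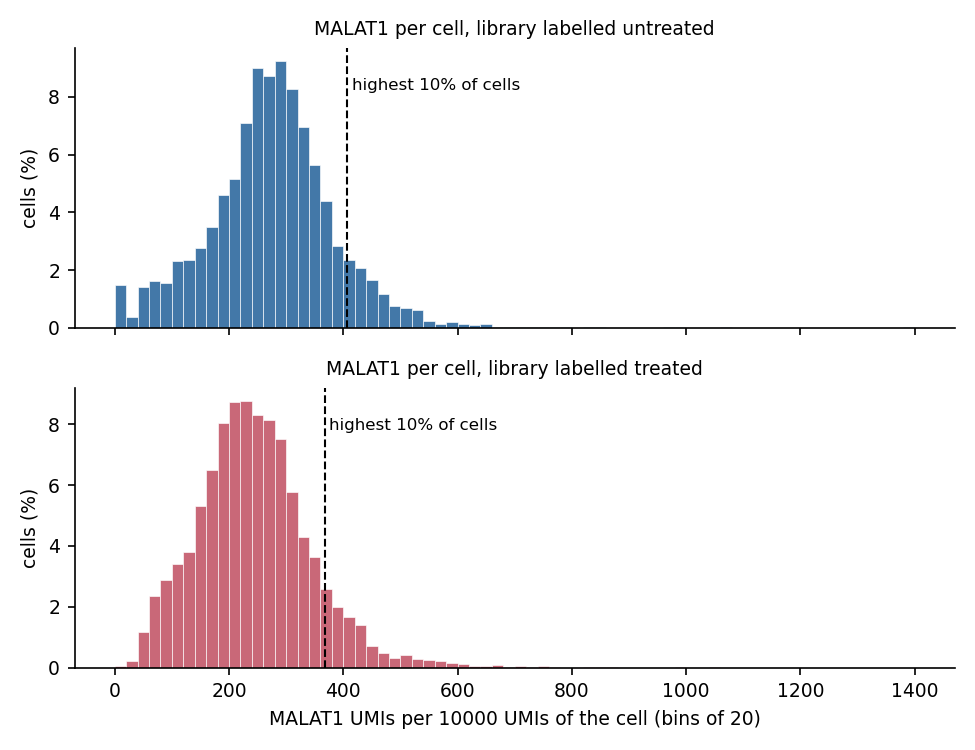
Distribution of MALAT1 UMIs per 10000 UMIs of a cell (x axis, bins of 20) as a percentage of the cells of each library (y axis), with the dashed line at the lowest MALAT1-high cell. Both distributions have 1 main peak, and the line lies on its right slope, at 407 in the untreated-labelled library and 367 in the treated-labelled library.

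Depth went with the choice of cells. The median UMI total was 9261 in MALAT1-high cells and 11294 in other cells of the untreated-labelled library, and 8041.5 and 8648 in the treated-labelled library. The median number of genes per cell was 2970 against 3284, and 2726.5 against 2834. Shallow cells were over-represented: 48.1% and 43.7% of MALAT1-high cells were among the shallow cells when each library was divided into 3 equal parts by UMI total. With the top 20% of cells in place of 10%, the ratio of the median totals was 0.97 and 1.07, in place of 0.82 and 0.93. The relation was not monotonic, since the 10% of cells lowest in MALAT1 were shallower still, with medians of 6917 and 6133 UMIs. The part of depth in the gene differences below was not tested, and the values within the shallow, middle and deep parts are given further on. In all, 48 barcodes occurred in both libraries, 14 MALAT1-high cells carried such a barcode, and 0 barcodes were high in both.

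Mitochondrially encoded RNA, which is made and translated inside the organelle, took 5.65% of the UMIs other than MALAT1 in MALAT1-high cells and 5.19% in other cells of the untreated-labelled library. In the treated-labelled library the shares were 5.27% and 4.82%. The ratios were 1.09 (1.08 to 1.09) and 1.09 (1.09 to 1.10), and the deposited cells reached at most 9.99% with MALAT1 counted in the total. Among shallow cells the shares were 5.263% against 4.795% and 4.718% against 4.707%. They were 6.319% against 5.439% and 5.411% against 4.742% among middle cells, and 5.352% against 5.174% and 5.505% against 4.912% among deep cells. The 10th percentile over cells was lower in MALAT1-high cells, at 3.30% against 3.66% and 3.01% against 3.65%. The medians over cells were higher, at 5.51% against 5.07% and 5.16% against 4.66%. Of the 13 mitochondrially encoded mRNAs, 12 and 13 had ratios above 1, as did 57.5% and 58.6% of all genes compared. The highest was MT-ND6, a complex I subunit and the only mRNA encoded on the light strand, with 118.9 against 69.5 CPM (1.71, 1.54 to 1.89) and 128.9 against 81.6 (1.58, 1.46 to 1.71). MT-CO1, a complex IV subunit, had ratios of 1.12 and 1.11. The nuclear encoded subunits of the same complexes differed in direction: 37 of 39 had ratios below 1 in each library, with median log2 ratios of -0.11 and -0.11. ATP5B, the catalytic beta subunit of ATP synthase, stood at 576.4 against 708.6 CPM and at 512.4 against 663.3. Ribosomal protein mRNAs took 21.6% against 21.5% and 21.8% against 22.4% of the UMIs other than MALAT1.

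Levels in CPM are summed over the cells of a part and leave MALAT1 out of the total, so that MALAT1 itself cannot lower the other genes. A gene's ratio is its level in MALAT1-high cells over its level in other cells of the same library. Genes were compared where they had at least 100 UMIs in the library and at least 10 expected in MALAT1-high cells. With a fold of 1.5 as the mark, 454 of 11274 genes (4.03%) were higher and 257 (2.28%) lower in the untreated-labelled library. In the treated-labelled library, 790 of 11405 genes (6.93%) were higher and 332 (2.91%) lower. Over the 10960 genes compared in both libraries, 160 (1.46%) were higher in both and 35 (0.319%) lower in both. The 160 genes were 37.7% of the 424 higher ones of the untreated-labelled library and 22.7% of the 704 of the treated-labelled library. Lower genes recurred less, the 35 being 15.7% of the 223 and 11.8% of the 296 lower ones. Only 5 of those 424 genes, and 7 of the 223 lower ones, passed the mark in the opposite direction in the treated-labelled library. Across genes, the ratios of the libraries had a Spearman correlation of 0.51, and of 0.73 over the 4980 genes with at least 1000 UMIs in each library. Genes are not independent, and ratios of genes with few UMIs carry more counting error.

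**Figure D2:**
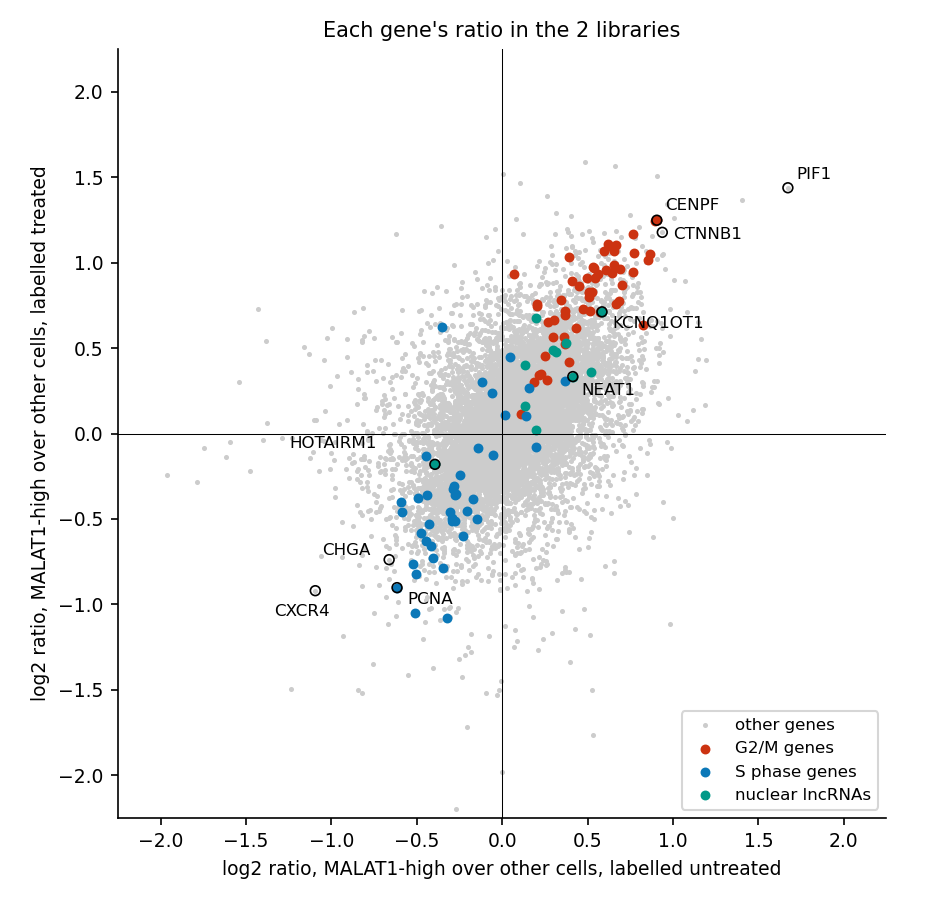
Each point is a gene compared in both libraries, with its log2 ratio of MALAT1-high over other cells in the untreated-labelled library (x axis) and labelled treated (y axis); 2 genes lie outside the axes. The 54 G2/M genes are all at the upper right of the 2 zero lines, most S phase genes lie in the lower left, and HOTAIRM1 lies away from the other nuclear long non-coding RNAs.

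Genes of the mitotic apparatus led the genes with the highest ratios in both libraries. By the interval bound nearest to 1, the 10 highest were PIF1, CTNNB1, ASPM, CENPF, CENPA, CASC5, PRR11, TPX2, UBE2C and AURKA. PIF1, a DNA helicase, stood at 84.3 against 26.5 CPM in the untreated-labelled library (3.19, 2.81 to 3.62) and at 147.3 against 54.4 in the treated-labelled library (2.71, 2.50 to 2.94). ASPM, a spindle pole protein, stood at 188.4 against 96.7 (1.95) and at 303.8 against 119.7 (2.54). CENPF, a kinetochore protein that accumulates in G2, stood at 529.2 against 282.5 (1.87) and at 894 against 376 (2.38). These 3 genes were thus higher in MALAT1-high cells in each library. CENPA, the histone H3 variant of centromeres, had ratios of 1.81 and 2.02, and CASC5, a kinetochore scaffold, of 1.83 and 2.06. TPX2, which nucleates spindle microtubules, had ratios of 1.71 and 2.08. AURKA, the mitotic kinase that TPX2 activates, had ratios of 1.82 and 2.07, and UBE2C, the ubiquitin-conjugating enzyme of the anaphase-promoting complex, of 1.70 and 1.92. PRR11 had ratios of 1.91 and 2.07. CTNNB1, which encodes beta-catenin, is no mitotic gene and stood at 97.3 against 50.8 (1.92) and at 135.6 against 60.0 (2.26).

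Many mitotic genes share a promoter layout, a cell cycle genes homology region (CHR) near the start site with CCAAT boxes upstream, through which the DREAM and B-MYB complexes and NF-Y are known to act. The promoters below are shown because, of the 10 highest genes, these 3 had the highest interval bounds among those that hold both motifs. Each is the stretch from 150 bases before to 50 bases after the RefSeq start on GRCh38.p14, with TTTGAA (the CHR core) and CCAAT in capitals on either strand, so that TTCAAA and ATTGG are capitals too. The motifs can share a base where they meet. In PIF1 the TTTGAA lies shortly before the start, with the CCAAT boxes upstream of it. In CENPF it lies after the start, with the CCAAT boxes upstream. In ASPM most CCAAT boxes lie downstream of the TTCAAA, unlike that layout.
PIF1, chr15:64825598-64825797, minus strand: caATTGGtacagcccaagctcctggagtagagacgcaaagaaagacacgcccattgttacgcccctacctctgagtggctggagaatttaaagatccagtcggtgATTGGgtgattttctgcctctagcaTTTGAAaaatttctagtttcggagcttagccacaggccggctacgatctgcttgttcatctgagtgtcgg
CENPF, chr1:214603045-214603244, plus strand: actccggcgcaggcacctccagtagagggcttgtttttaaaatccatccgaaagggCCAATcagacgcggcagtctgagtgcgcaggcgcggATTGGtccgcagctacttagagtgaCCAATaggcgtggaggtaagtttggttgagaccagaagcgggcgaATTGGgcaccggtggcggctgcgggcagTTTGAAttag
ASPM, chr1:197146620-197146819, minus strand: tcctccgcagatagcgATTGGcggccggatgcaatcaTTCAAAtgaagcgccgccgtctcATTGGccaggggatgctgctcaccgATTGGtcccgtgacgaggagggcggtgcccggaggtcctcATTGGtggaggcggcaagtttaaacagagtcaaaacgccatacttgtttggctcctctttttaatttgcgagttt

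Over windows from 250 bases before to 50 after the start, 5 of the 6 windows found for the 10 highest genes held both motifs, and CTNNB1 held neither. None of the 8 windows found for the 10 lowest genes held TTTGAA, and 2 held CCAAT. Of all 27305 windows, 15.4% held TTTGAA, 35.7% CCAAT and 6.08% both. The G2/M list had TTTGAA in 30 of 44 windows (68.2%), and the S phase list in 2 of 31 (6.45%), while CCAAT was in 30 (68.2%) and 22 (71.0%). CHGA, among the 10 lowest, is shown for contrast and holds neither motif.
CHGA, chr14:92923000-92923199, plus strand: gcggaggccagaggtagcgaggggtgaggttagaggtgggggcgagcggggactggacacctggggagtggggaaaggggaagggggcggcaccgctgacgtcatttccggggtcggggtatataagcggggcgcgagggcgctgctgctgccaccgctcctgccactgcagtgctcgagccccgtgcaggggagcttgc
A match describes the letters only, and says nothing of which factor is bound in these cells.

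The whole G2/M list went one way and most of the S phase list the other. All 54 G2/M genes had ratios above 1 in both libraries, and 20 of them in the untreated-labelled library and 44 in the treated-labelled library were at least 1.5-fold higher. Their median log2 ratios were 0.51 and 0.83, against 0.05 and 0.07 for all genes compared. Of all genes, 57.5% and 58.6% had ratios above 1, and 4.03% and 6.93% were at least 1.5-fold higher. MKI67, the proliferation marker Ki-67, stood at 185.3 against 115.5 CPM and at 329.6 against 192.4. TOP2A, the mitotic topoisomerase, stood at 400.9 against 276.8 and at 874.9 against 445.3. Of 40 S phase genes, 34 and 32 had ratios below 1, with medians of -0.29 and -0.39, and 3 and 10 were at least 1.5-fold lower. Over all genes, 4792 of 11274 and 4721 of 11405 had ratios below 1, and 2.28% and 2.91% were at least 1.5-fold lower. PCNA, the sliding clamp of DNA polymerases, was lower at 315.5 against 483.3 (0.65) and 305.7 against 571.4 (0.54), and GINS2, a part of the replicative helicase, at 120.4 against 172.9 (0.70) and 97.6 against 165.8 (0.59). The other 6 and 8 S phase genes had ratios above 1, among them ATAD2 at 1.11 and 1.21. In the treated-labelled library 1 of them, E2F8, passed the 1.5-fold mark (0.78 and 1.54, at 3.43 and 11.5 CPM in MALAT1-high cells); it was named after its values were seen.

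Phases were called from the same S and G2/M lists after each cell was thinned to 4351 UMIs, which left out 45 and 98 MALAT1-high cells and 200 and 569 other cells. In the untreated-labelled library, 51.8% of 369 MALAT1-high cells were called G2/M (46.5 to 57.0%), against 32.5% of 3523 other cells. In the treated-labelled library the shares were 78.2% of 570 (74.6 to 81.6%) and 43.0% of 5442. Unthinned, they were 47.6% against 32.0% and 76.0% against 42.9%. Calls of S were less frequent, at 41.2% against 56.8% and 21.1% against 50.4%, and calls of G1 at 7.05% against 10.7% and 0.702% against 6.54%. Read the other way, 14.3% and 16.0% of cells called G2/M were MALAT1-high, 7.06% and 4.19% of cells called S, and 6.47% and 1.11% of cells called G1. Of the MALAT1-high cells, 6.23% and 1.93% had a larger score within 0.05 of 0, the border with G1, and 5.69% and 2.63% had S and G2/M scores within 0.05 of each other. Free RNA could not be gauged, since no cell type that lacks these genes was at hand, and whether the libraries differed in the size of the shift was not tested. The share of cells with a PIF1 UMI after thinning was 17.6% against 7.27% and 34.2% against 11.96% (26.6% against 13.6% and 41.6% against 18.1% unthinned).

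Among other nuclear long non-coding RNAs, 10 of the 11 compared had ratios above 1 in each library, against 57.5% and 58.6% of all genes. Their median log2 ratios were 0.30 and 0.40, against 0.05 and 0.07 for all genes compared. The 1.5-fold mark was passed by 0 of 11 in the untreated-labelled library and by 2 of 11 in the treated-labelled library. Of all genes compared, 4.03% and 6.93% were at least 1.5-fold higher. The 2 RNAs were KCNQ1OT1 and HOXD-AS1, the second named after its values were seen. NEAT1 stood at 1544 against 1159 CPM (1.33, 1.30 to 1.37) and at 884.8 against 702.3 (1.26, 1.22 to 1.30). KCNQ1OT1, the nuclear antisense RNA of the imprinted KCNQ1 locus, stood at 438.8 against 292.6 (1.5, just under the mark, 1.42 to 1.58) and at 480.4 against 293.1 (1.64, 1.57 to 1.71). TUG1 stood at 44.8 against 36.0 (1.24) and at 49.6 against 35.6 (1.39). Each of these 3 RNAs was thus higher in MALAT1-high cells of both libraries. The ratio of MALAT1 itself was 1.84 and 1.92 on this scale. It was set by the choice of cells, so the sizes cannot be compared.

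HOTAIRM1, a non-coding RNA of the HOXA cluster proposed as a marker of these cells, went the other way. It stood at 12.4 against 16.3 CPM (0.76, 0.55 to 1.02) and at 13.8 against 15.6 (0.88, 0.68 to 1.12), and both intervals included 1. With the cells of each library in 10 equal bins by MALAT1, it was highest in bin 1, the cells lowest in MALAT1, at 41.4 and 35.6 CPM, and between 11.3 and 13.8 from bin 4 up. With the UMIs of each cell split into a ranking and a measuring part, its log2 ratio in the untreated-labelled library was -1.04 in place of -0.39. That value is imprecise and has no interval, since MALAT1-high cells of that library held 47 HOTAIRM1 UMIs before the split. AVIL, another proposed marker, encodes the actin-binding protein advillin. It was higher, at 132.0 against 93.3 (1.42, 1.29 to 1.55) and at 98.5 against 58.0 (1.70, 1.54 to 1.86), but it too was highest in bin 1, at 219.1 and 128.6. Among shallow cells AVIL was lower in MALAT1-high than in other cells, at 95.2 against 130.5 and 69.2 against 74.9, and among deep cells higher, at 192.2 against 98.6 and 135.8 against 57.3. The share of cells with an AVIL UMI after thinning was 30.1% against 26.4% and 25.8% against 18.9% (44.4% against 43.5% and 36.1% against 29.7% unthinned). Neither gene thus marked the MALAT1-high cells alone.

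**Figure D3:**
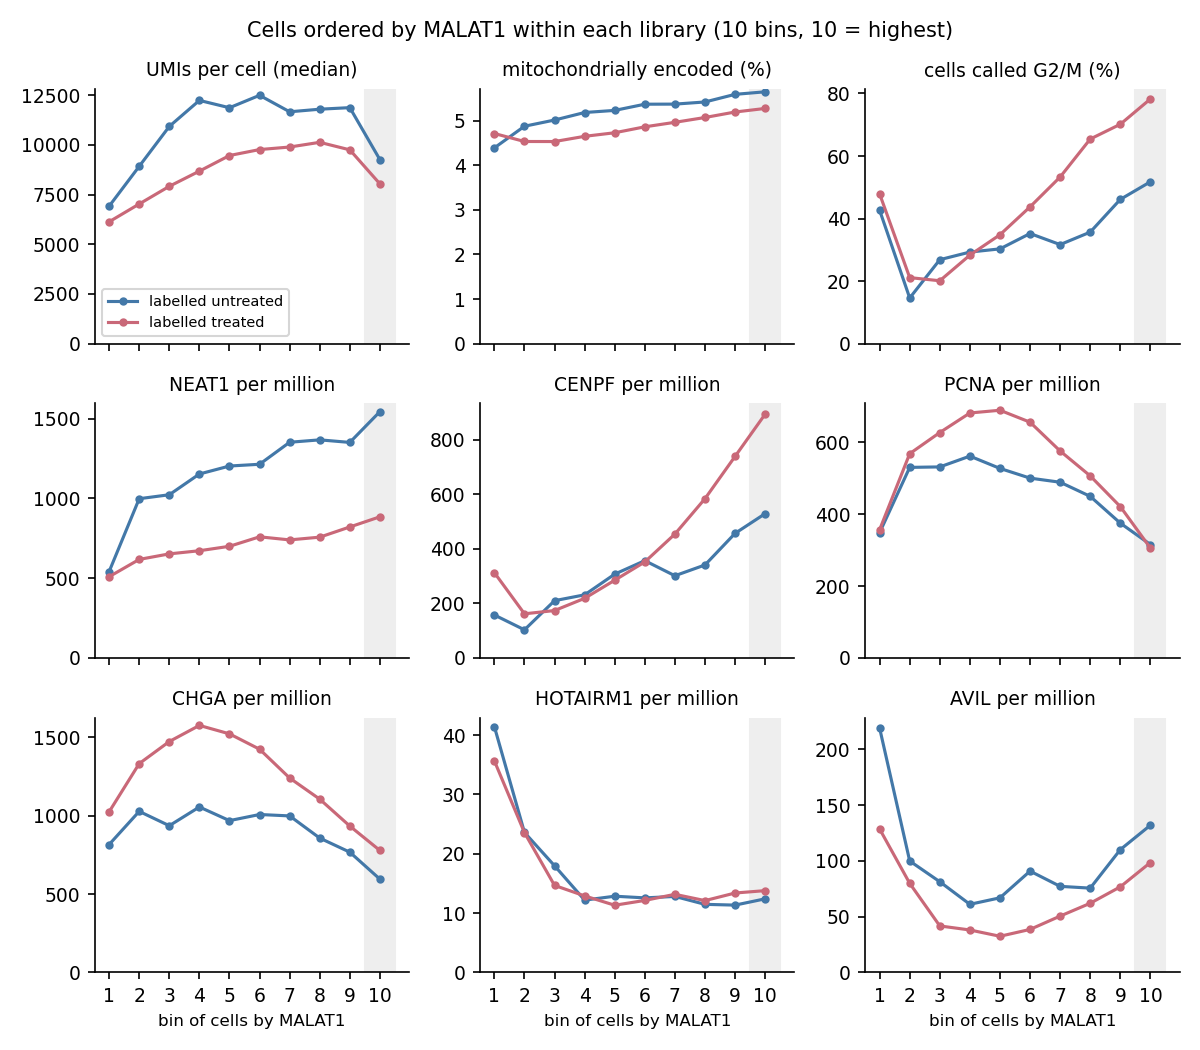
Cells of each library ranked by MALAT1 and divided into 10 equal bins (x axis, the shaded 10 being the MALAT1-high cells), with the median UMI total, the mitochondrially encoded percentage, the percentage called G2/M and the level of 6 genes in CPM (y axes from 0). NEAT1 and CENPF reach their highest level in bin 10, PCNA and CHGA peak in the middle, and HOTAIRM1 and AVIL are highest in bin 1.

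Genes around the nuclear speckle gave smaller differences. Of 35 mRNAs known to keep introns in the nucleus, 26 and 31 had ratios above 1, against 57.5% and 58.6% of all genes compared, with median log2 ratios of 0.15 and 0.26. The 1.5-fold mark was reached by 0 and 3, near the shares of all genes, 4.03% and 6.93%. ANKRD36C stood at 88.8 against 60.4 CPM (1.47) and at 123.8 against 91.4 (1.35), and DDX17, an RNA helicase, had ratios of 1.28 and 1.28, while SRSF7, a splicing factor, had 0.88 and 0.84. The 26 SR and speckle protein genes were near the background, with medians of 0.04 and 0.02, among them SON at 1.06 and 0.96 and SRRM2 at 1.12 and 1.06. Among 16 paraspeckle and hnRNP genes, with medians of 0.06 and 0.14, HNRNPH1 was the highest at 217.2 against 152.0 (1.43) and 340 against 192.9 (1.76). SFPQ, a core paraspeckle protein, had ratios of 1.34 and 1.44. Of the 9 cytoplasmic non-coding and snoRNA host RNAs, 5 and 6 were above 1, with medians of 0.12 and 0.07. LINC00657, also called NORAD, was the highest at 76.96 against 54.2 (1.42) and 94.3 against 54.4 (1.73).

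Of 25 chromatin regulators, 19 and 21 had ratios above 1, against 57.5% and 58.6% of all genes compared, with median log2 ratios of 0.23 and 0.27. At least 1.5-fold higher were 3 and 6, against 4.03% and 6.93% of all genes, and the summed level of the list was 2621 against 2518 CPM and 2606 against 2415. ASXL1, a Polycomb-associated protein, had ratios of 1.55 and 1.52, and SETD2, the histone H3 lysine 36 methyltransferase, of 1.58 and 1.45. HDAC1 and HDAC2, enzymes that domatinostat inhibits, were lower, at 0.84 and 0.76 and at 0.85 and 0.83. In the list of cell cycle exit and G1 genes, 15 and 16 of 20 were above 1, with medians of 0.17 and 0.31, and 4 and 5 were at least 1.5-fold higher. CCNG2, cyclin G2, had ratios of 1.65 and 1.80, and KLF6, a zinc finger transcription factor, of 1.51 and 1.68. CCND3, cyclin D3, went the other way at 0.83 and 0.69, but its log2 ratio in the treated-labelled library was 0.30 in place of -0.54 with cells ranked within called phases. With that ranking, the log2 ratio of CDKN1A in the treated-labelled library was 0.95 in place of 0.04.

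The lineage genes were near the background as a group, with opposite directions inside it. Of 28 and 27 Merkel cell and neuroendocrine genes compared, 14 and 16 had ratios above 1, with median log2 ratios of 0.01 and 0.04. Of all genes compared, 57.5% and 58.6% had ratios above 1, with medians of 0.05 and 0.07. CHGA, chromogranin A of secretory granules, was lower, at 595.1 against 941.5 CPM (0.63, 0.61 to 0.66) and at 778.3 against 1298 (0.60, 0.58 to 0.62). The epithelial keratins KRT18 (0.79 and 0.61) and KRT20 (0.88 and 0.80) were lower too. For KRT18 in the treated-labelled library, the log2 ratio was -0.12 in place of -0.72 with cells ranked within called phases and depth parts. The transcription factor INSM1 was higher, at 193.7 against 161.3 (1.20, 1.11 to 1.30) and 233.8 against 171.3 (1.36, 1.28 to 1.45). ATOH1, the Merkel cell fate factor, had few UMIs, with ratios of 1.19 (0.78 to 1.75) and 1.31 (0.93 to 1.79). Neuronal and synaptic genes had medians of 0.11 and 0.21. Markers of other cell types were at or near 0 for leukocytes, melanocytes and erythroid cells, low for fibroblasts and endothelium, and present for keratinocytes. Of the leukocyte markers, 5 of 9, PTPRC and CD3D among them, had no UMI in MALAT1-high cells of each library, and the summed level of the 9 was 11.1 against 11.2 and 2.10 against 2.45 CPM. The summed markers of fibroblasts and endothelium were at 38.2 against 36.7 and 29.6 against 24.7, with COL1A2, LUM, VWF and CDH5 at 0 in MALAT1-high cells. Those of melanocytes and erythroid cells were at 3.69 against 5.63 and 1.72 against 1.12, with 5 of 8 at 0. Keratinocyte markers were at 460.4 against 456.9 and 425.9 against 398, most of it KRT10 at 342.6 against 317.3 and 360.8 against 317.3, while KRT14, KRT1 and TP63 were at 0 in MALAT1-high cells of both libraries.

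The genes with the lowest ratios in both libraries came from several functions. By the bound nearest to 1, the 10 lowest were CHGA, PCNA, CXCR4, TUBA4A, COCH, UFD1L, HSPA2, ENO1, ACAT2 and CYBA. CXCR4 stood at 24.0 against 51.2 CPM (0.47, 0.38 to 0.58) and at 18.9 against 35.8 (0.53, 0.43 to 0.65). TUBA4A, an alpha-tubulin, stood at 124.1 against 191.6 (0.65) and 150.4 against 247.5 (0.61). ENO1, a glycolytic enzyme, stood at 884.2 against 1251 (0.71) and 801.6 against 1136 (0.71). GAPDH, of the same pathway, had ratios of 0.82 and 0.82, and ACTB, cytoplasmic actin, of 0.84 and 0.82. ACAT2, an enzyme of sterol synthesis, had ratios of 0.72 and 0.68, COCH, which encodes the secreted protein cochlin, of 0.64 and 0.69, and the chaperone gene HSPA2 of 0.70 and 0.69. Secreted and membrane protein mRNAs had medians of -0.13 and -0.15, with 31 and 28 of 37 below 1, and translation factors and abundant cytosolic mRNAs of -0.04 and -0.10. Over all genes compared, 4792 of 11274 and 4721 of 11405 were below 1. The heat shock, immediate early, cell death and antigen presentation lists had medians between -0.10 and 0.09.

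Because MALAT1-high cells were called G2/M more often, ratios were also taken between MALAT1-high and other cells of the same called phase. A shared call need not mean a shared stage of the cycle. In bin 1, the cells lowest in MALAT1, 42.6% and 47.9% were called G2/M. Yet bin 1 had the lowest TOP2A of the 10 bins, at 70.8 and 166.8 CPM, and the lowest NEAT1, at 541.5 and 509.2. CENPF was not lowest in bin 1, at 157.6 and 312.8 against 103.2 and 161.9 in bin 2. Cells of bin 1 called G2/M are among the other cells called G2/M. Their part in the ratios within G2/M was not tested. NEAT1 stayed higher within cells called S (1.59, 1.53 to 1.64, and 1.92, 1.82 to 2.03) and within cells called G2/M (1.53 and 1.24). KCNQ1OT1 had ratios of 1.40 and 1.76 within S and of 1.60 and 1.503 within G2/M, and CTNNB1 of 2.20 and 2.94 and of 1.61 and 1.97. CHGA was lower within S (0.67 and 0.76) and within G2/M (0.75 and 0.72), as were PCNA, CXCR4, ENO1 and GAPDH. The mitotic genes narrowed: within cells called G2/M, CENPF had ratios of 1.30 and 1.55, PIF1 of 2.16 and 1.64 and UBE2C of 1.17 and 1.25. Within cells called S, UBE2C had ratios of 0.93 (0.76 to 1.13) and 1.36, and AVIL of 0.87 (0.64 to 1.15) and 0.48 (0.27 to 0.80). With the 10% ranked anew within each called phase, the medians of the G2/M list were 0.05 and 0.21 and those of the nuclear long non-coding RNAs 0.12 and 0.28. Genes at least 1.5-fold higher in both libraries then numbered 37 in place of 160. The log2 ratio of PIF1 was then 1.05 and 0.60 in place of 1.67 and 1.44. In the treated-labelled library that of CENPF was 0.55 in place of 1.25, that of AVIL 0.17 in place of 0.76, that of CCNG2 0.25 in place of 0.84 and that of CXCR4 -0.24 in place of -0.92.

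**Figure D4:**
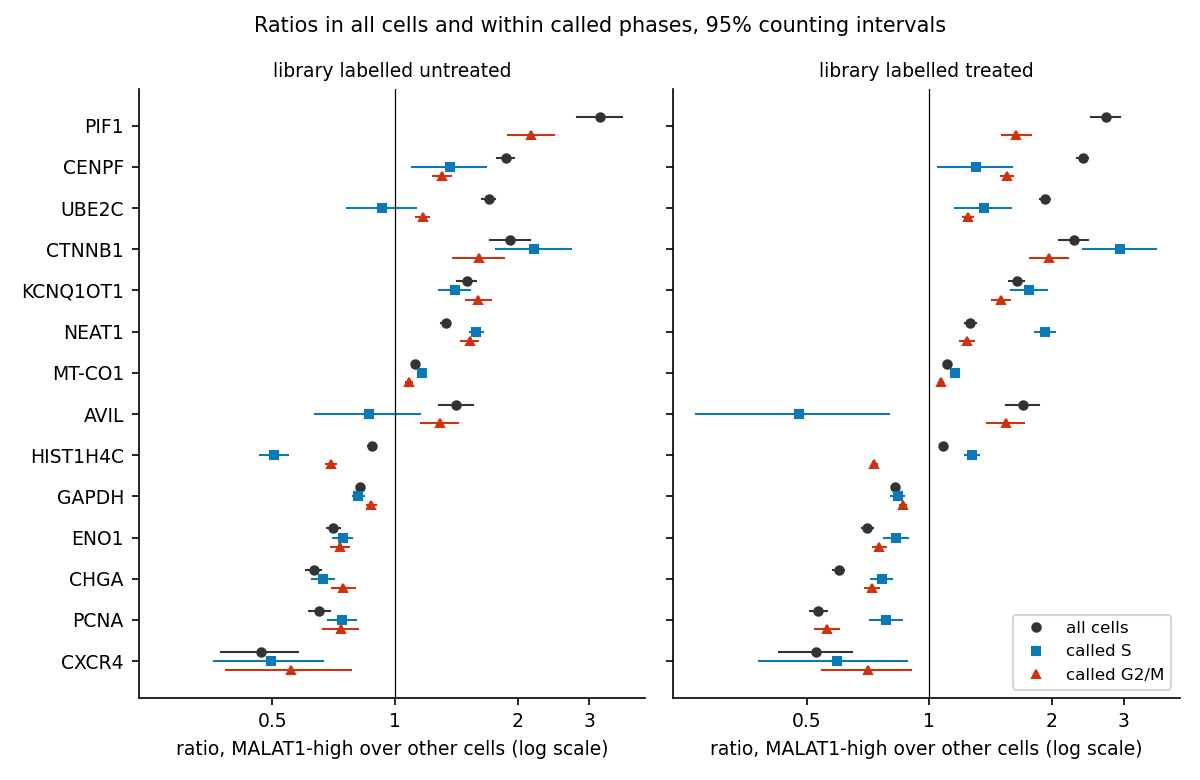
Ratio of MALAT1-high over other cells for 14 genes (x axis, log scale, with 95% exact counting intervals as lines) in all cells, in cells called S and in cells called G2/M of each library; a point is left out where MALAT1-high cells had fewer than 10 UMIs. KCNQ1OT1, NEAT1 and CTNNB1 lie above 1 and GAPDH, ENO1, CHGA, PCNA and CXCR4 below 1 in each of the 3 sets of cells, and PIF1, CENPF and UBE2C lie closer to 1 within G2/M than in all cells.

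MALAT1-high cells differed among themselves by depth. Among deep cells of the untreated-labelled library, 87.4% of the MALAT1-high cells that could be thinned were called G2/M, against 31.2% among shallow ones. In the treated-labelled library the shares were 90.5% and 67.0%. CENPF followed, at 738.8 against 281.1 CPM and 1089 against 719.4. CTNNB1 went the other way, at 73.3 in deep and 170.9 in shallow MALAT1-high cells, and at 53.1 and 302.3. NEAT1 too was higher in shallow MALAT1-high cells, at 1914 against 1066 in the deep ones and at 1132 against 732.4. Among shallow cells, MALAT1-high cells exceeded the other cells in NEAT1 (1043 and 667.3 in the others) and in CTNNB1 (103.2 and 151.0 in the others). Among deep cells NEAT1 was at about the level of the other cells, 1066 against 1089 and 732.4 against 719.1, while CHGA was lower than in the other cells in each of the 3 depth parts of both libraries.

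The ratios also went with the length of the transcript, which the choice of cells did not use. Gene symbols were matched to GENCODE release 29 for 92.0% of the genes compared in both libraries. The 9873 protein-coding genes with a transcript length were divided into 5 equal bins by their longest annotated transcript. The median log2 ratio went from -0.05 and -0.08 in the shortest bin, up to 2153 bases, to 0.18 and 0.26 in the longest, above 6010 bases. In the longest bin, 7.03% and 12.4% of genes were at least 1.5-fold higher, and in the shortest 1.11% and 2.13%. Spearman's rho between length and log2 ratio was 0.31 and 0.38 across genes, as a description, since genes share the same cells and depth. With cells ranked within called phases it was 0.27 and 0.36. Among genes with at least 1000 UMIs in each library, the medians went from -0.06 and -0.09 to 0.15 and 0.21. The 182 long non-coding RNAs had medians of 0.15 and 0.17, against 0.05 and 0.06 for protein-coding genes.

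**Figure D5:**
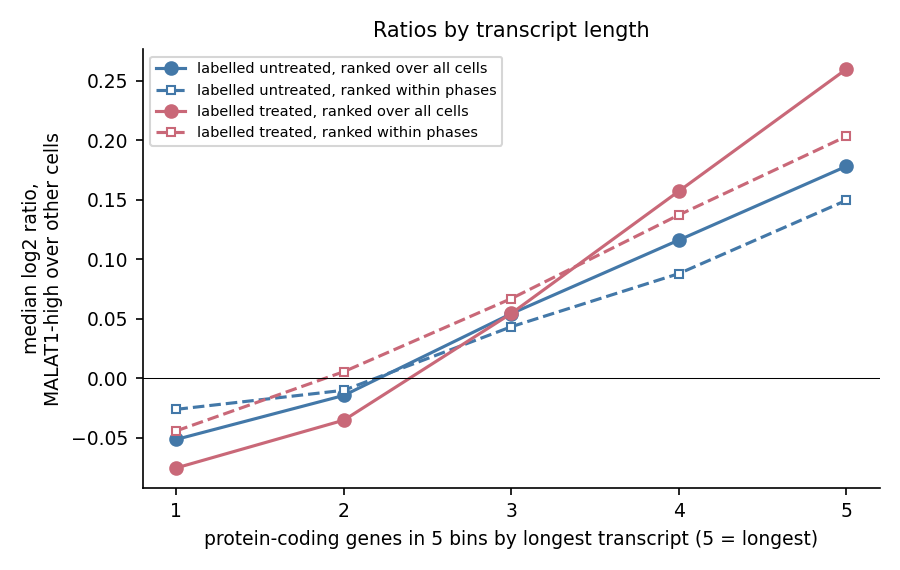
Median log2 ratio of MALAT1-high over other cells (y axis) for protein-coding genes in 5 bins by longest transcript (x axis), for each library, with cells ranked over all cells (filled circles) and within called phases (open squares). All 4 lines go up from the shortest to the longest bin, from -0.05 to 0.18 and from -0.08 to 0.26 with all cells ranked together.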

How the data were processed

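Both libraries came from the WaGa line, with 10x Genomics 3′ Chromium v2.0 chemistry, per the labels' protocols. Cell Ranger, Seurat and hg19 are named, without versions, in the submitters' processing notes. Which annotation and cell filters were used is not given in the sources used here. A single table was deposited by the authors, with 32742 genes and 10816 cells; the deposited values are the natural log of 1 plus counts per 10000 counts of the cell, by the values themselves. The smallest value above 0 in a cell was taken as 1 UMI, which gave whole counts (tolerance 1e-06) in 100% of cells. Cells were assigned to libraries by the treatment word in their names. No cells were removed, and doublets were not called.

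UMIs were summed over MALAT1-high and over other cells of each library, and ratios carry 95% Clopper-Pearson intervals. The ratios and intervals were tested on simulated gene sums with known folds. The choice of cells, the thinning and the phase calls were not simulated. Phases were called with scanpy 1.11.5 on cells thinned to 4351 UMIs. Members of 24 gene lists, tests and alternatives were chosen with earlier results of these data known. Named genes were the 3 proposed markers, the 10 highest and 10 lowest ratios, ranked on the interval bound closer to 1 in the library where it was closest (same direction in both, without mitochondrially encoded, ribosomal protein and clone-named genes), up to 2 at each end of a list, and well-known genes taken by name; any others were named after their values were seen. Promoters came from RefSeq and lengths from GENCODE 29. The computation used Python 3.11.15, numpy 2.4.6, scipy 1.17.1 and pandas 2.3.3.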

Additional observations from a re-analysis of the deposited data

Results flagged for a closer look

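A few ratios of MALAT1-high over other cells pointed in opposite directions in the libraries, and the differences between the libraries were not tested. HIST1H4C, a replication-dependent histone H4 gene, had ratios of 0.879 (untreated-labelled library) and 1.08 (treated-labelled library). The list of clustered histone genes had median log2 ratios of -0.17 and 0.21. SOX2, a transcription factor of the Merkel cell lineage, had ratios of 0.778 and 1.09. STMN1, which encodes a microtubule-destabilising protein, had 0.979 and 1.06. Within cells called G2/M, HIST1H4C had ratios of 0.70 and 0.73, and within cells called S of 0.51 and 1.27.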

How the results depend on the processing

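No paired analysis was possible because each group had 1 library. The cause of the changes below was not tested. Counts of genes at least 1.5-fold higher (454, 790 and 160 in the untreated-labelled library, the treated-labelled library and both) and lower (257, 332 and 35) moved most with the settings. Higher genes numbered 125, 363 and 75 with a minimum of 500 UMIs, 1009, 1327 and 310 with 30, and 25, 145 and 23 with a pseudocount of 0.1 per 10000. Lower genes then numbered 57, 119 and 9, then 729, 731 and 116, then 4, 26 and 4. With the top 20% of cells, 219 were higher in the untreated-labelled library, and 101, 168 and 12 lower. Ranked within called phases, 452 were higher and 120 lower in the treated-labelled library, and 37 and 6 in both. Ranked within phases and 3 parts by UMI total, an alternative chosen after seeing the data, 266, 403 and 36 were higher, and 129 and 9 lower in the treated-labelled library and in both. Without cells with a PIF1 UMI, also chosen afterwards, 103 were higher in both, and 219 and 13 lower in the treated-labelled library and in both. A similar count did not mean the same genes. With split UMIs, 462 of 9632 genes were higher and 285 lower in the untreated-labelled library, but only 189 and 81 were those counted before. In the treated-labelled library 717 and 337 of 10050 were, with 419 and 140 the same. Within 10 bins of UMI total, 492 and 743 were higher, with 301 and 600 the same.

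The ratio of median UMI totals (0.82 and 0.93) was 0.74 and 0.69 with the top 5%, 0.97 and 1.07 with the top 20%, 1.00 and 1 within 10 bins of UMI total, 0.895 and 0.993 ranked after thinning, and 0.979 and 1.00 within phases and depth parts. Within called phases it was 0.874 in the treated-labelled library. The mitochondrially encoded difference labelled untreated was 0.618 points within called phases. It was 0.586 with cells ranked by MALAT1 over a total without mitochondrially encoded genes. Differences in phase share moved with thinning. To the median UMI total, G2/M was 31.7 and 39.6 points higher, S -27.0 and -38.0, and G1 -1.6 in the treated-labelled library. Unthinned, G1 was -0.732 and -3.96, and scored alone -7.345 in the treated-labelled library. With split UMIs the MALAT1 ratio was 1.77 and 1.83.

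Of 640 list medians under the alternatives, 53 had the opposite sign to the reported one, 6 of them where that was over 0.1 in size. Clustered histone genes labelled untreated had 0.0635 within 10 bins of UMI total, 0.087 after thinning and 0.0508 with split UMIs, and those labelled treated had -0.13 within phases and depth parts. Cytoplasmic non-coding RNAs labelled untreated had -0.0205 with the top 20%, and paraspeckle and hnRNP genes labelled treated had -0.00676 within called phases. Smaller medians changed by as much within called phases in the untreated-labelled library: paraspeckle and hnRNP genes had -0.0801 in place of 0.0572, and cell death and p53 genes 0.216 in place of -0.0177. Lineage medians had the opposite sign under 8 and 3 alternatives, all within 0.05 of 0. Of log2 ratios past the 1.5-fold mark, the sign changed for SFN, 0.23 within phases and 0.21 within phases and depth parts, and JUNB, 0.00119 within phases, both labelled treated, and SNHG12, 0.0545 with the top 5%, labelled untreated. Of 3453 gene values under the alternatives, 112 had the opposite sign, over 49 ratios of a gene in a library. Among them was CCND3 labelled treated, 0.295 within phases and 0.174 within phases and depth parts in place of -0.54. CDKN1A labelled treated kept its sign but was 0.946 within phases and 0.695 within phases and depth parts, in place of 0.0351. Depth limits genes with few UMIs, such as ATOH1 and HOTAIRM1.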

Other observations

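In the 10% of cells lowest in MALAT1, SOX2 stood at 236.1 and 212.2 CPM in the libraries labelled untreated and treated, against 68.3 and 145.8 in MALAT1-high cells. PIF1 was at 5.25 and 15.8 CPM there, against 84.3 and 147.3. These cells had a G2/M call in 42.6% and 47.9% after thinning, above the next 10% of cells at 14.6% and 21.1%. CENPF stood at 157.6 and 312.8 CPM in the cells lowest in MALAT1. It was at 103.2 and 161.9 in the next 10% of cells and at 529.2 and 894 in MALAT1-high cells. These values are a description of the same cells and libraries.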
